A study of Mus musculus with 9 samples.

Results

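The proteasome genes of mouse striatum were followed across 9 single-colour Affymetrix arrays, 3 after chronic MPTP, 3 after acute MPTP and 3 after saline. The genes were taken by name: every probe set with exactly 1 gene symbol in the platform annotation whose symbol starts with Psma, Psmb, Psmc, Psmd, Psme, Psmf or Psmg followed by a digit. That gave 50 of the 19935 genes that had a probe set of their own. Where a gene had several probe sets, the one with the highest mean over the 9 arrays stood for it. A probe set shared by Psme2 and Psme2b was left out. Psmc3ip and Psme3ip1 met the rule on symbols, although they encode proteins named for binding a subunit and not subunits. MPTP is a compound whose metabolite is taken up by dopamine neurons and inhibits mitochondrial complex I; the axons of these neurons end in the striatum. The chronic group received MPTP once a day at 4 mg/kg for 20 days, in all 80 mg/kg, and its striatum was taken at 8 weeks. The acute group received 4 doses of 20 mg/kg, 2 h apart and into the abdominal cavity, also 80 mg/kg in all, and was sampled at 1 week. The control group received 4 saline injections 2 h apart and was likewise sampled at 1 week. In the chronic group both the regimen and the sampling time were unlike those of the acute and control groups, and these cannot be told apart. Strain, sex and age are not given in the sources used here. The labels do not tie the arrays to separate animals, and p-values then reflect only the spread among the samples at hand, which may be technical.

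The 26S proteasome degrades proteins tagged with ubiquitin. Its 20S core is a stack of alpha and beta rings, with the cutting sites inside the beta rings, and its 19S cap recognises the tag, removes it and unfolds the substrate with a ring of ATPases. After exposure to interferon gamma the cutting subunits are exchanged for immunoproteasome forms, while other caps, such as PA28 and PA200, open the core in their own ways. When the proteasome fails, the transcription factor NRF1 raises the transcription of the subunit genes together through antioxidant response elements in their promoters. Loss of proteasome function has long been studied in Parkinson's disease, which MPTP is used to model.

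The sequences upstream of these genes were read first, because coordinated transcription of subunits runs through them. RefSeq promoters of build GRCm38.p6 matched 42 of the 50 genes, and the 250 bases before each start site were searched on both strands. The antioxidant response element core TGACNNNGC was found in 5 of the 42 (11.9%: Psmb5, Psmb6, Psmc6, Psmd12 and Psmd9), against 11.5% of all 27025 genes with a promoter. The core of the interferon-stimulated response element, written as 2 copies of GAAA with any 2 bases between them, was found in 3 (7.14%: Psmb3, Psmd4 and Psmd9), against 3.46% of all genes. The interferon gamma activated site TTCNNNGAA was found in 2 (4.76%: Psmb8 and Psmg1), against 8.13%. The CCAAT box was found in 16 (38.1%), against 37.5%. A match is a run of letters only and says nothing about whether a factor binds there. The 5 windows below belong to the 4 genes with the lowest differences between chronic MPTP and control, and to Psmb5. Like Psmb6, Psmb5 encodes a catalytic subunit and has an antioxidant response element core. The windows are each written 5′ to 3′ on the strand of the gene, with motif matches in capitals. They are Psmb10 (chr8:105938393-105938642, minus strand), Psmd4 (chr3:95042615-95042864, minus strand), Psmg3 (chr5:139826895-139827144, minus strand), Psma5 (chr3:108256676-108256925, plus strand) and Psmb5 (chr14:54617996-54618245, minus strand).
Psmb10: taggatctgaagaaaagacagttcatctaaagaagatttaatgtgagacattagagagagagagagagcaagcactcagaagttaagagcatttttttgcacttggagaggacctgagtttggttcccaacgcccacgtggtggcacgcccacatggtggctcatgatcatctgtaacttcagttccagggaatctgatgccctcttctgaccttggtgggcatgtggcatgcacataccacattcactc
Psmd4: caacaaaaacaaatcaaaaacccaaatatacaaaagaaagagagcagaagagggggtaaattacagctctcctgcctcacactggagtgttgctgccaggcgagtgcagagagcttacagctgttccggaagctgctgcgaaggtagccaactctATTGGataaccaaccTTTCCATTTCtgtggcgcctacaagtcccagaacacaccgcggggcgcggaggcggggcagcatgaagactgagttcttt
Psmg3: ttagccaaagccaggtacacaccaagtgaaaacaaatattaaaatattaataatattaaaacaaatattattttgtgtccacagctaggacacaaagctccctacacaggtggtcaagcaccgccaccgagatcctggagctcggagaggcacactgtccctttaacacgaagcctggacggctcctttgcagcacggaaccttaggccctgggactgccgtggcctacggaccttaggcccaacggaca
Psma5: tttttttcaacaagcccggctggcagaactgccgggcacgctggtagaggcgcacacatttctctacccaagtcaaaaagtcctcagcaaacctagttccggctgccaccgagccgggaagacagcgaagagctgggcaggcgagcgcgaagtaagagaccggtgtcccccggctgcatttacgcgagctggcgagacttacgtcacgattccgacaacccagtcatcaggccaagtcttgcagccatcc
Psmb5: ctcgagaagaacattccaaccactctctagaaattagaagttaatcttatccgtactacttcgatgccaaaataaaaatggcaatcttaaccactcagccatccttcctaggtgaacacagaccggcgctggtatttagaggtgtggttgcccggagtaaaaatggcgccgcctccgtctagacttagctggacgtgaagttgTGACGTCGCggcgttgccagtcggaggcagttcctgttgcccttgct
The capitals in Psmb5 mark the antioxidant response element core, 47 bases before the start site. Those in Psmd4 mark, on the reverse strand, the interferon-stimulated core 80 bases before the start and a CCAAT box 95 bases before it. The other 3 windows held no match to the 4 motifs.

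The tissue was checked before the genes were compared. Drd2 and Ppp1r1b, which mark striatal projection neurons, were well expressed on every array. The 8 measured striatal genes all lay higher after chronic MPTP than in control (median log2 difference 0.55). Of 10 tested cortex genes, 9 lay lower (median -0.68). After acute MPTP the 8 striatal genes (median 0.31) and 9 of the 10 cortex genes (median 0.31) lay higher than in control. The mean of the cortex genes, centred on the 9 arrays, was -0.44, -0.47 and -0.77 on the chronic arrays, 0.74, 1.04 and -0.57 on the acute arrays, against 1.23, -0.48 and -0.29 on the control arrays. Choroid plexus genes were high on acute array 3 (1.53) and control array 3 (0.86). Some other lists also lay lower after chronic MPTP than in control. These were 9 of 11 genes of thalamus, septum and hypothalamus (median -0.35), 7 of 8 of choroid plexus (median -0.15) and 5 of 6 of astrocytes (median -0.16). Of the oligodendrocyte genes 4 of 6 lay lower (median -0.05), and of the endothelial genes 4 of 6 lay higher (median 0.10). Of the microglial genes 7 of 9 lay higher (median 0.14), but their centred means were -0.02, 0.01 and 0.08 on the chronic arrays and -0.31, 0.19 and -0.07 on the control arrays, with control array 1 alone far below the rest. The part of these tissue differences in the results that follow was not tested beyond the alternatives given with them. In bulk tissue, fewer cells of a type and less RNA per cell cannot be told apart.

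No proteasome gene differed between groups after adjustment for all probe sets tested. Of the 50 genes, 48 passed the intensity filter (a mean of at least log2 5.89). The remaining 2 were Psma8, an alpha subunit of testis, at a mean of 5.21, and Psmb11, the catalytic subunit of thymus, at 5.74. The log2 intensities of single genes ranged over 0.15 to 1.04 across the 9 arrays (median 0.49), about as far as those of all probe sets tested (median 0.50). In the main fit, which did not pair arrays by replicate number, the 95% interval of a difference reached a median of 0.27 to either side (log2). In that fit, shifts of the size described here could be resolved for few single genes. With the replicate number as a block, the standard error of Psma5 for chronic MPTP against control was 0.068, against 0.125 without it. That of Psmb10 did not fall (0.121 against 0.118). Comparisons in limma gave 0 of 48 genes an adjusted p under 0.05 in each of the 3 comparisons.

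**Figure D1:**
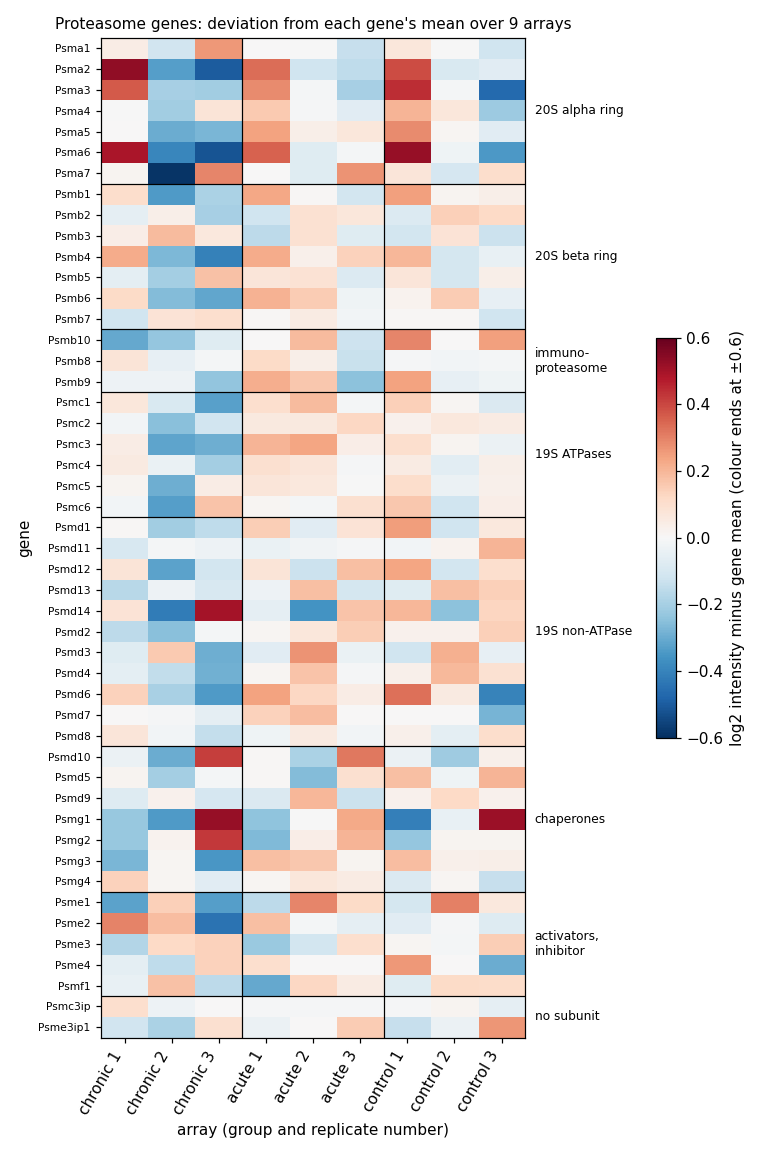
Log2 intensity of each proteasome gene that was tested, minus its mean over the 9 arrays, by array (columns: chronic, acute, control) and grouped by role (rows). Chronic arrays 2 and 3 hold the lowest value of 14 and 13 genes. Chronic array 3 also holds the highest value of 9 genes, and control array 1 that of 13.

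After chronic MPTP most proteasome genes lay slightly lower than after saline. The log2 difference was below 0 for 37 of the 48 genes (77.1%) and above 0 for 11, against 53.3% below 0 among all 16335 probe sets tested. It was below 0 for 31 genes without control array 1 (53.9% of all probe sets) and for 31 without chronic array 2 (54.1%). The median difference was -0.11, or 7.27% lower, against -0.01 over all probe sets, and single genes ran from -0.38 (Psmb10) to 0.15 (Psmb3). The 31 subunits of the standard 26S particle had a median of -0.13, with 26 of them below 0. In 5 genes all chronic arrays lay below all control arrays (10.4%: Psmb10, Psmd4, Psmg3, Psmd2 and Psmc2), against 3.67% of all probe sets. Limma gave 4 genes an unadjusted p under 0.05, all lower (8.33%: Psmb10, Psmd4, Psmg3 and Psmd2). Of all probe sets, 2.66% were called lower and 5.51% in either direction. In limma 0 genes had an adjusted p under 0.05 (smallest 0.876, all probe sets 0%). Without chronic array 1 the unadjusted count was 9, where 7.87% of all probe sets had such a p in either direction. With 2 tissue covariates, the mean of the cortex genes and that of the thalamus and choroid plexus genes, it was 1, against 1.27% of all probe sets.

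The difference was not spread evenly over the chronic arrays. The mean of the 48 genes, each centred on its own mean, was 0.01, -0.14 and -0.07 on chronic arrays 1, 2 and 3, against 0.08, 0.01 and -0.00024 on the control arrays. Chronic array 1 thus lay within the range of the control arrays, while the other 2 lay below every control array. On chronic arrays 1, 2 and 3, 23, 36 and 32 of the 48 genes were under their own mean, against 15, 22 and 21 on the control arrays. The median difference was -0.07 with control array 1 left out, and -0.14 with chronic array 1 left out.

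The acute group showed no such shift against saline. The median difference was 0.01, against 0.00 over all probe sets, and it turned slightly negative (-0.01) when control array 3 was left out. The difference was above 0 for 29 genes and below 0 for 19, against 51.5% above 0 among all probe sets. In 0 genes did the groups separate, against 3.56% of all probe sets. Limma gave 0 genes an unadjusted p under 0.05 (0.851% of all probe sets) and 0 an adjusted p under 0.05 (smallest 1; all probe sets 0%). The centred means of the 48 genes were 0.05, 0.04 and 0.02 on the acute arrays, against 0.08, 0.01 and -0.00024 on the control arrays. The largest single difference was that of Psmd7, a subunit of the 19S lid that pairs with the deubiquitinase Psmd14. Psmd7 lay at log2 9.52, 9.56 and 9.38 on the acute arrays, against 9.38, 9.38 and 9.10 on the control arrays. Control array 3 was lowest, and the groups touched at 9.38. That value was identical on 4 arrays: acute array 3, control arrays 1 and 2, and chronic array 1. Values identical on 3 or more arrays occurred in 10.4% of the tested proteasome genes and 16.5% of all probe sets. Their source was not tested. The difference of Psmd7 was 0.20 ± 0.10 (SE, n = 3 each, adjusted p = 1 in limma), and 0.11 without control array 3.

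The comparison of the 2 MPTP regimens used the same chronic arrays, so its values are not independent of those against saline. The difference between chronic and acute MPTP was below 0 for 39 genes (81.2%) and above 0 for 9, against 53.9% below 0 among all probe sets. Its median was -0.11, or 7.34% lower, against -0.01, and it was -0.06 without chronic array 2. Without that array 32 genes lay below 0, against 55.3% of all probe sets. In 5 genes all chronic arrays lay below all acute arrays (10.4%: Psmg3, Psmc2, Psma5, Psmd2 and Psmd4), against 5.01% of all probe sets. Limma gave 6 genes an unadjusted p under 0.05, all lower (12.5%: Psmc3, Psmg3, Psmc2, Psma5, Psmd2 and Psmd4). Of all probe sets, 2.76% were called lower and 5.12% in either direction. In limma 0 genes had an adjusted p under 0.05 (smallest 0.877, all probe sets 0.0122%). The count of 6 was unsteady: it was 2 without acute array 1, chronic array 2 or chronic array 3, where 3.51%, 6.16% and 3.07% of all probe sets had such a p in either direction. It was 3 without acute array 2 (2.38% of all probe sets) or control array 2 (4.67%). Leaving out acute arrays 1 and 2 and control array 1, the arrays with high cortex genes, left 1 acute array. The median difference over the 48 genes was then -0.08, against -0.02 over all probe sets.

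**Figure D2:**
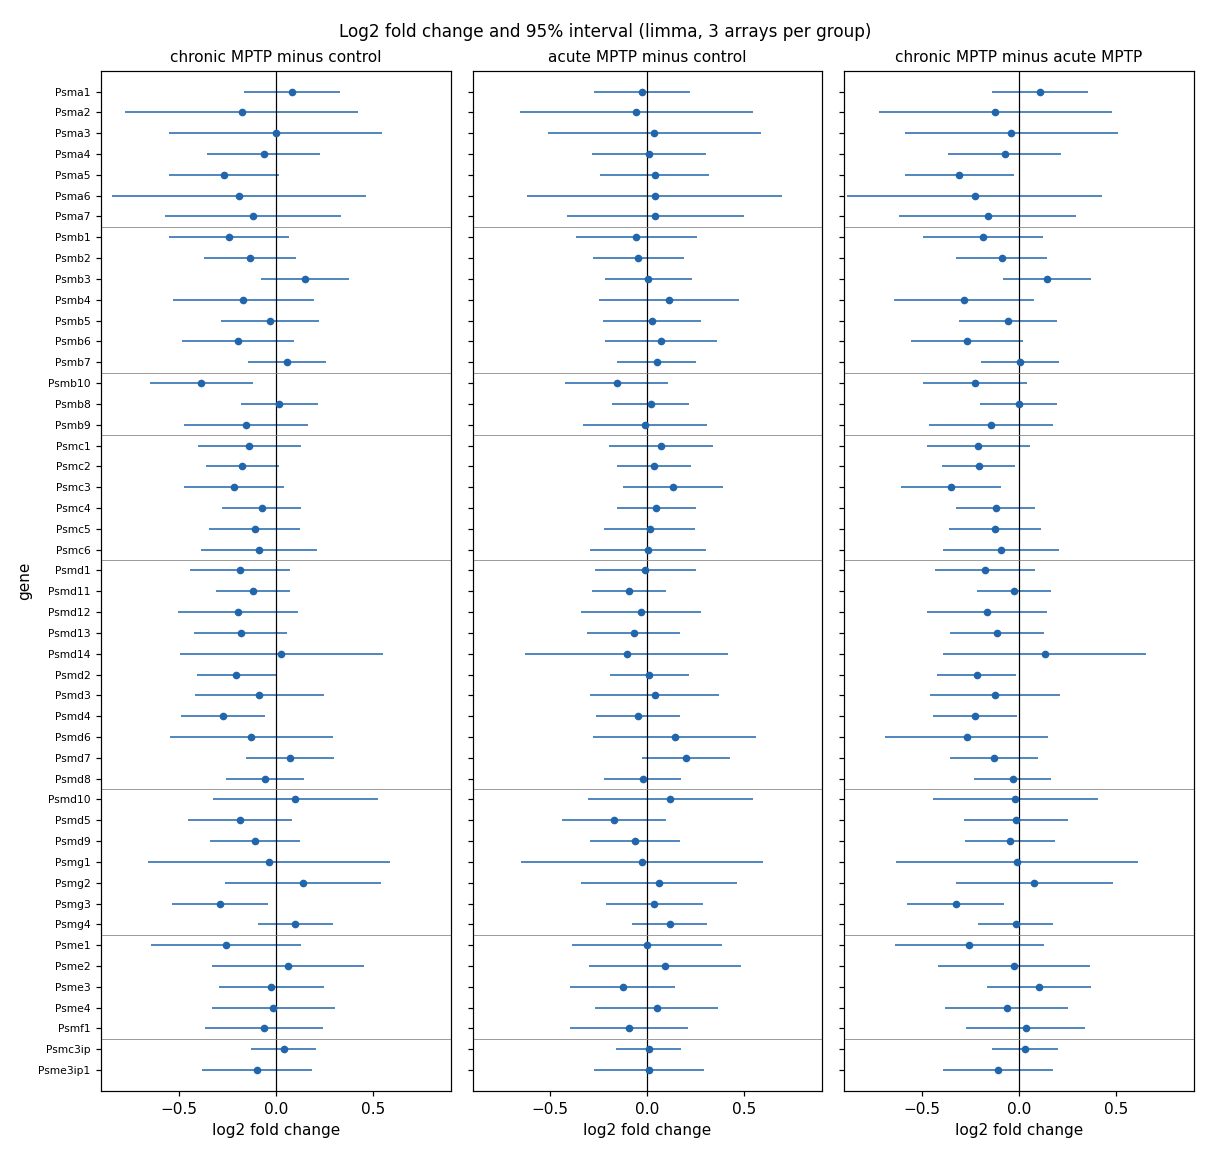
Log2 difference of each tested proteasome gene with its 95% interval from limma, in 3 panels (each MPTP regimen against control, then chronic against acute), grouped by role. Most points of the chronic comparisons lie left of 0, with medians of -0.11 in both, and nearly all intervals cross 0.

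The 20S alpha ring gates the core. Among its 7 tested genes, 6 lay lower after chronic MPTP than in control (median -0.12) and 0 had an unadjusted p under 0.05. The median turned to 0.03 without control array 1, and that against acute MPTP (-0.12) turned to 0.01 without chronic array 2. Psma5, which encodes alpha subunit 5, lay at 7.97, 7.67 and 7.69 on the chronic arrays, 8.21, 7.997 and 8.03 on the acute arrays, against 8.25, 7.98 and 7.90 on the control arrays. Every chronic array lay below every acute array, and chronic array 1 lay between control arrays 2 and 3. The difference of Psma5 was -0.31 ± 0.12 against acute MPTP (unadjusted p = 0.0365, adjusted p = 0.877 in limma) and -0.27 ± 0.12 against control (adjusted p = 0.911). Its second probe set gave -0.19 against control. Psma6, another alpha subunit, varied most in the ring, at 10.70, 9.82 and 9.69 on the chronic arrays, 10.56, 10.14 and 10.20 on the acute arrays, against 10.73, 10.18 and 9.86 on the control arrays. The array numbered 1 was the highest of each group, so that Psma6 differed far more within groups than between them (-0.19 ± 0.29 for chronic against control). Psma1 went the other way, at 9.96, 9.80 and 10.17 on the chronic arrays against 9.98, 9.91 and 9.79 on the control arrays, and overlapped fully (0.08 ± 0.11).

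The constitutive beta ring holds 3 catalytic subunits: Psmb6 for caspase-like, Psmb7 for trypsin-like and Psmb5 for chymotrypsin-like cutting. Of the 7 beta genes tested, 5 lay lower after chronic MPTP than in control (median -0.13). Psmb5 lay at 11.99, 11.84 and 12.22 on the chronic arrays, against 12.12, 11.94 and 12.08 on the control arrays, and the groups overlapped (-0.03 ± 0.11; adjusted p = 0.99). Psmb6 lay at 10.01, 9.63 and 9.58 on the chronic arrays, 10.10, 10.04 and 9.87 on the acute arrays, against 9.92, 10.05 and 9.84 on the control arrays. Chronic arrays 2 and 3 were the lowest of all 9, and array 1 was within the range of the control arrays (-0.20 ± 0.13; adjusted p = 0.953). Psmb7 hardly varied, from 9.63 to 9.85 over the 9 arrays, and its difference was 0.06 ± 0.09. Of the structural beta subunits, Psmb4 varied most, at 10.97, 10.48 and 10.34 on the chronic arrays, 10.97, 10.78 and 10.88 on the acute arrays, against 10.95, 10.64 and 10.70 on the control arrays. Psmb4 was high on chronic array 1 and low on the other 2 (-0.17 ± 0.16 against control). Psmb3 had the highest positive difference of all 48 genes, at 12.06, 12.20 and 12.08 on the chronic arrays against 11.91, 12.10 and 11.88 on the control arrays (0.15 ± 0.10; adjusted p = 0.953), and the groups overlapped. Its second probe set gave 0.06.

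The immunoproteasome subunits are the forms that interferon induces. Psmb10, which replaces Psmb7, had the lowest difference of all 48 genes against saline. It lay at 8.15, 8.23 and 8.39 on the chronic arrays, 8.46, 8.65 and 8.34 on the acute arrays, against 8.75, 8.46 and 8.71 on the control arrays. All 3 chronic arrays lay below all 3 control arrays, while acute array 3 lay below chronic array 3. Psmb10 averaged 8.26 ± 0.12 after chronic MPTP and 8.64 ± 0.16 in control (SD, n = 3 each), a difference of -0.38 ± 0.12 or 1.30-fold lower (unadjusted p = 0.00967, adjusted p = 0.876 in limma). With the 2 tissue covariates the difference was -0.17. Psmb8, which replaces Psmb5, stayed within 6.08 to 6.33 on all 9 arrays (0.02 ± 0.09 for chronic MPTP against control), close to the filter. Psmb9, which replaces Psmb6, lay at 7.15, 7.14 and 6.94 on the chronic arrays, 7.40, 7.34 and 6.93 on the acute arrays, against 7.42, 7.13 and 7.15 on the control arrays. Psmb9 was highest on control array 1 and acute arrays 1 and 2, the arrays high in cortex genes, and its groups overlapped (-0.15 ± 0.14 against control). The 3 genes thus did not share a pattern over the arrays.

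**Figure D3:**
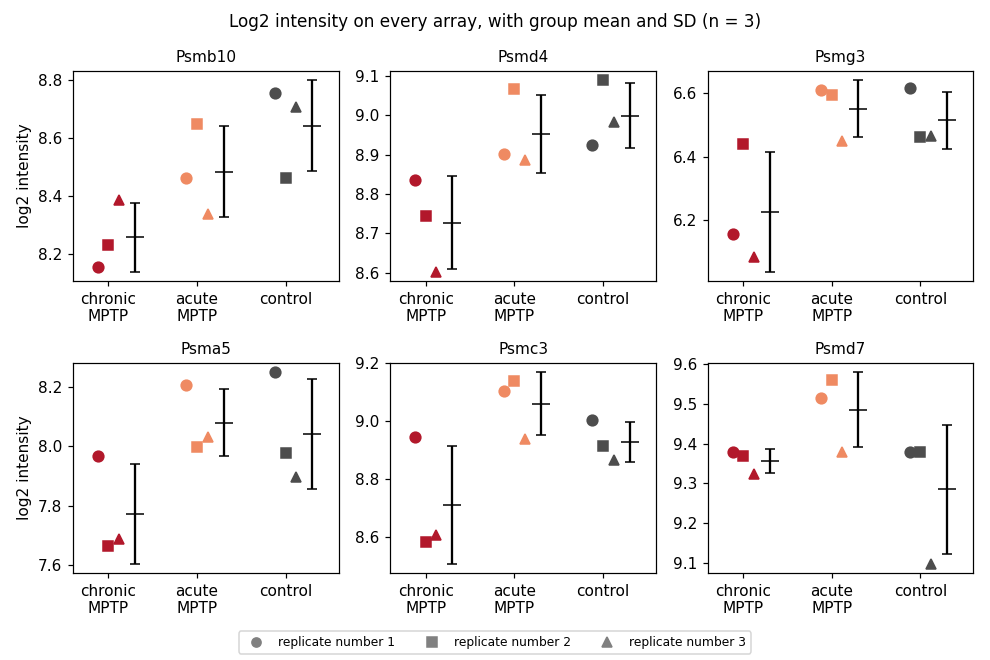
Log2 intensity of Psmb10, Psmd4, Psmg3, Psma5, Psmc3 and Psmd7 on each array (points; the shape gives the replicate number) in the chronic, acute and control groups, with group means and SD bars (n = 3) and a separate y axis per gene. The chronic arrays of Psmb10, Psmd4 and Psmg3 lie below all control arrays, and those of the other 3 genes do not.

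The 6 ATPases form the motor ring of the 19S cap. All 6 lay lower after chronic MPTP than in control (median -0.12) and than after acute MPTP (median -0.16), and all 6 lay higher after acute MPTP than in control (median 0.04); 0 had an adjusted p under 0.05. Psmc3 had the lowest difference of the 48 genes between the regimens. Psmc3 lay at 8.94, 8.58 and 8.61 on the chronic arrays, 9.10, 9.14 and 8.94 on the acute arrays, against 9.002, 8.91 and 8.87 on the control arrays. Chronic arrays 2 and 3 stood lowest, while chronic array 1 met acute array 3 at 8.94. The difference was -0.35 ± 0.11 against acute MPTP (unadjusted p = 0.0135, adjusted p = 0.877) and -0.22 ± 0.11 against control. Psmc2 lay at 8.19, 7.95 and 8.09 on the chronic arrays, 8.26, 8.27 and 8.33 on the acute arrays, against 8.23, 8.27 and 8.26 on the control arrays. It was the only ATPase whose chronic arrays lay below all others (-0.17 ± 0.08 against control and -0.21 ± 0.08 against acute MPTP). Psmc1, Psmc4, Psmc5 and Psmc6 had differences from -0.14 to -0.07 against control. The second probe set of Psmc1 gave 0.02 for chronic against acute MPTP where the first gave -0.21, and -0.08 for acute MPTP against control where the first gave 0.07. The counts of 6 between the regimens and for acute MPTP against control therefore depend on the probe set used for Psmc1.

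The other subunits of the 19S cap recognise and deubiquitinate substrates or hold the lid together. Of 11 tested, 9 lay lower after chronic MPTP than in control (median -0.13) and 10 lower than after acute MPTP (median -0.13). Psmd4, a receptor for ubiquitin chains, lay at 8.84, 8.74 and 8.60 on the chronic arrays, 8.90, 9.07 and 8.89 on the acute arrays, against 8.93, 9.09 and 8.98 on the control arrays. Its chronic arrays lay below all 6 others. The difference was -0.27 ± 0.10 against control (unadjusted p = 0.0192, adjusted p = 0.876) and -0.22 ± 0.10 against acute MPTP. Psmd2, a scaffold of the base, lay at 10.65, 10.55 and 10.79 on the chronic arrays, 10.82, 10.87 and 10.95 on the acute arrays, against 10.83, 10.83 and 10.94 on the control arrays. Here too the 3 chronic arrays were the lowest, and the difference was -0.20 ± 0.09 against control (adjusted p = 0.904). The second probe set of Psmd2 gave -0.22. Psmd14, the deubiquitinase of the lid, varied most in this group, at 10.60, 10.10 and 11.02 on the chronic arrays, 10.46, 10.16 and 10.69 on the acute arrays, against 10.72, 10.27 and 10.65 on the control arrays. The array numbered 2 was the lowest of each group, and the chronic arrays spanned both ends (0.03 ± 0.23 against control). Psmd6, a lid subunit, lay at 9.26, 8.93 and 8.79 on the chronic arrays, 9.37, 9.25 and 9.17 on the acute arrays, against 9.45, 9.18 and 8.72 on the control arrays, and its groups overlapped. Psmd11, a lid subunit, lay at 9.14, 9.15 and 9.17 on the acute arrays, against 9.16, 9.20 and 9.38 on the control arrays (-0.09 ± 0.08), with control array 3 alone well above the rest.

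Assembly chaperones build the particle and leave it. Of 7 tested, 4 lay lower after chronic MPTP than in control (median -0.04), and the median turned to 0.11 without chronic array 2. Psmg3, which pairs with Psmg4 to start the alpha ring, lay at 6.16, 6.44 and 6.08 on the chronic arrays, 6.61, 6.59 and 6.45 on the acute arrays, against 6.62, 6.46 and 6.46 on the control arrays. All chronic arrays lay below the others, although chronic array 2 lay only just below them. The difference was -0.29 ± 0.11 against control (unadjusted p = 0.0283, adjusted p = 0.898) and -0.32 ± 0.11 against acute MPTP (adjusted p = 0.877). Its partner Psmg4 did not follow it, at 7.35, 7.23 and 7.15 on the chronic arrays, 7.23, 7.28 and 7.26 on the acute arrays, against 7.13, 7.23 and 7.07 on the control arrays (0.10 ± 0.09 for chronic and 0.11 ± 0.09 for acute MPTP against control). The partners Psmg1 and Psmg2 were both highest on arrays numbered 3 in the chronic and acute groups. Psmg1 lay at 7.73, 7.62 and 8.48 on the chronic arrays, 7.72, 7.96 and 8.19 on the acute arrays, against 7.55, 7.92 and 8.47 on the control arrays. Psmg2 lay at 7.53, 7.78 and 8.18 on the chronic arrays, 7.49, 7.79 and 7.96 on the acute arrays, against 7.52, 7.77 and 7.77 on the control arrays. Their chronic differences from control were -0.04 ± 0.28 and 0.14 ± 0.18. Psmd5, a chaperone of the 19S base, lay at 9.16, 8.89 and 9.25 on the acute arrays against 9.33, 9.12 and 9.35 on the control arrays, lower within each number but overlapping (-0.17 ± 0.12; adjusted p = 1).

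The alternative caps and the inhibitor Psmf1 were mixed. Of 5 tested, 4 lay lower after chronic MPTP than in control, with a median of -0.02. Psme1 and Psme2 together form the PA28 cap of the interferon response. Psme1 lay at 8.24, 8.71 and 8.23 on the chronic arrays, 8.41, 8.86 and 8.68 on the acute arrays, against 8.46, 8.87 and 8.63 on the control arrays, with array 2 highest in each group (-0.26 ± 0.17 for chronic against control; adjusted p = 0.953). Its chronic array lay below both other arrays of its number in all 3 pairs, and with the replicate number as a block its unadjusted p in limma was 0.0132 against control and 0.0137 against acute MPTP (adjusted p = 0.287 and 0.278). Psme1 was one of several such genes in that limma fit. There 11 and 13 of the 48 genes had an unadjusted p under 0.05, against 13% and 13.9% of all probe sets in either direction. The smallest were those of Psma5 (0.00473 and 0.00224). Against control, only Psma5 and Psmd4 had a smaller p than Psme1. Psme2 did not follow Psme1, at 9.14, 9.03 and 8.40 on the chronic arrays against 8.78, 8.83 and 8.77 on the control arrays (0.06 ± 0.17). Psme3, which forms the nuclear PA28 gamma cap, lay at 10.72, 11.01 and 11.03 on the chronic arrays, 10.67, 10.78 and 10.99 on the acute arrays, against 10.91, 10.88 and 11.04 on the control arrays, and its groups overlapped in all comparisons. Psme4, the PA200 cap, had a difference of -0.01 ± 0.14 and Psmf1 one of -0.06 ± 0.13 for chronic MPTP against control.

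The replicate numbers in the sample titles went with the levels of genes across the whole array in all 3 groups, some proteasome genes among them. All 3 arrays numbered 1 lay above the other 6 for 6 genes (12.5%: Psma2, Psma3, Psma6, Psmb1, Psmb4 and Psmd6), against 5.21% of all probe sets. All arrays numbered 2 did so for 4 genes (8.33%: Psmb3, Psmd3, Psme1 and Psmf1), against 5.58%, and all arrays numbered 3 for 4 genes (8.33%: Psma7, Psmd10, Psmg1 and Psme3ip1), against 5.94%. For numbers 2 and 3 the shares of proteasome genes were thus little above those of all probe sets. The centred mean of the alpha ring was 0.21, -0.30 and -0.12 on the chronic arrays, 0.20, -0.04 and -0.03 on the acute arrays, against 0.28, -0.02 and -0.17 on the control arrays, highest on array 1 of each group. The assembly chaperones were instead highest on array 3 of each group, at -0.10, -0.11 and 0.12 on the chronic arrays, -0.06, 0.0024 and 0.11 on the acute arrays, against -0.05, -0.01 and 0.10 on the control arrays. Whether the numbers stand for a day, a run or something else is not given.

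**Figure D4:**
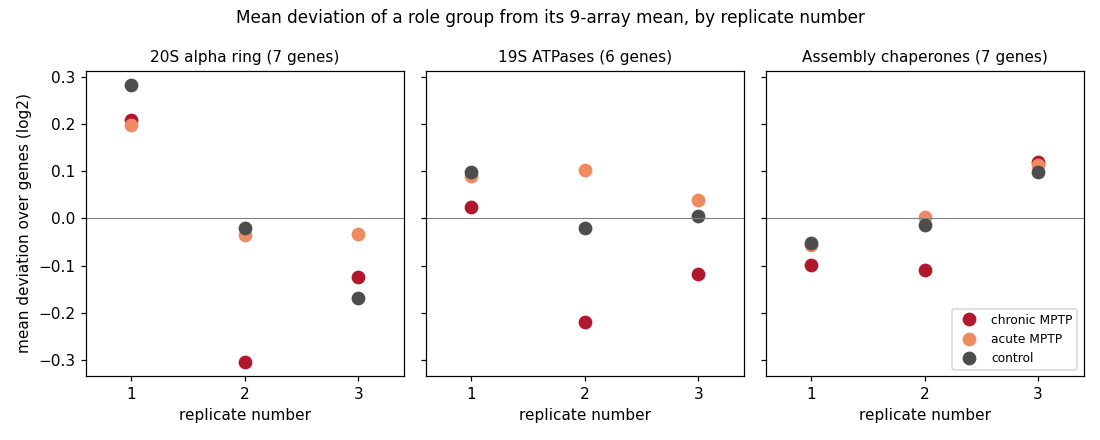
Mean centred log2 intensity of the alpha ring, the 19S ATPases and the assembly chaperones by replicate number, with 1 point for each array of the chronic, acute and control groups. Alpha-ring genes are highest on number 1 and chaperones on number 3 in all 3 groups.

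Because same-numbered arrays resembled each other, pairs were also read within each number. In 17 of the 48 genes the chronic array lay below the control array of its number in all 3 pairs (35.4%), against 14.8% of all probe sets. These included Psma5, Psma6, Psmb1, Psmb10, Psmc1, Psmc2, Psmc3 and Psme1. Likewise 17 genes lay below the acute array in all 3 pairs, against 21.6%, and Psmd4, Psmd2, Psmg3 and Psme1 were among both sets. For acute MPTP against control, 6 genes lay higher in all 3 pairs, against 13.4%, and 7 lay lower, against 12.3%. With the replicate number as a block, limma gave 11 genes an unadjusted p under 0.05 for chronic MPTP against control, all lower (22.9%). Of all probe sets, 6.46% were called lower and 13% in either direction. That fit gave 13 for chronic against acute MPTP, all lower (27.1%, against 7.19% called lower and 13.9% in either direction). For acute MPTP against control it gave 2 (4.17%, against 4.21% in either direction), Psmd7 higher and Psmd5 lower. The 11 were Psma5, Psmb1, Psmb10, Psmc3, Psmd1, Psmd12, Psmd2, Psmd4, Psmd5, Psmg3 and Psme1. The 13 were Psma5, Psmb1, Psmb4, Psmb6, Psmc1, Psmc2, Psmc3, Psmd1, Psmd2, Psmd4, Psmd6, Psmg3 and Psme1. None of the 48 genes reached an adjusted p under 0.05 in that fit, in which Psma5 came nearest (0.255 against control and 0.232 against acute MPTP).

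Genes that work beside the proteasome were read from lists in the same way. Of 17 tested genes for shuttle and proteasome-associated proteins, 12 lay lower and 5 higher after chronic MPTP than in control (median -0.05), and 0 had an adjusted p under 0.05. Vcp, the ATPase that extracts ubiquitinated proteins and hands them to the proteasome, lay at 10.22, 10.22 and 10.11 on the chronic arrays, 10.41, 10.53 and 10.49 on the acute arrays, against 10.38, 10.44 and 10.37 on the control arrays. Its chronic arrays were the lowest 3 of the 9. The difference was -0.30 ± 0.08 against acute MPTP (unadjusted p = 0.00395, adjusted p = 0.877) and -0.22 ± 0.08 against control (adjusted p = 0.876). Ubqln2, a shuttle for ubiquitinated proteins, had a difference of 0.20 ± 0.10 against control. Of 5 genes for NRF1 control, 4 lay higher after chronic MPTP than in control (median 0.02). Nfe2l1, which encodes NRF1, differed by 0.02 ± 0.13 and Nfe2l2 by 0.19 ± 0.17. Of 11 tested genes for interferon signalling and antigen presentation, 4 lay higher and 7 lower (median -0.03), and the receptor chains Ifngr1 (0.23 ± 0.10) and Ifngr2 (-0.28 ± 0.13) differed in opposite directions. Of the genes for ubiquitin and its activating enzymes, Uba6 was the one with a probe set of its own, at 0.08 ± 0.11.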

How the data were processed

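The authors deposited log2 intensities of 28815 probe sets, read as log2 from the values themselves; background correction, normalization and summary are not given in the sources used here, and the values were used as deposited. Per the labels' protocols, biotinylated cDNA was made from 200 ng of total RNA. The platform annotation gave 1 symbol to 21780 probe sets, several to 1605 and none to 5430. Tests covered the 16335 probe sets (14880 genes) that had 1 symbol and a mean over the arrays no lower than their 25th percentile, log2 5.89. A mean per group was fitted to all 9 arrays with limma 3.58.1 in R 4.3.3 (6 residual degrees of freedom), two-sided, with Benjamini-Hochberg adjustment over all probe sets tested and a threshold of 0.05. Errors beside log2 differences are standard errors with 3 arrays a group, from the fit without the replicate block. With the block the standard error for chronic MPTP against control was 0.125 for Psma6 and 0.111 for Psmd14. The number of arrays limits the precision. The members and lists were chosen with earlier results of these data known. Genes given array by array were the 4 with the smallest p in each direction of each comparison, the most variable of each role, and the catalytic subunits; Psme1 and Nfe2l1 were added for their roles after their values were seen. Across probe sets, deviations from the group means had r of 0.157 to 0.673 in the 9 pairs of arrays sharing a number and of -0.609 to 0.184 in the 18 other pairs between groups, so the numbers count as pairing from the values. The code was tested on simulated data. Alternatives were the replicate block, no filter, quantile normalization, an intensity trend, 2 groups alone, the mean of a gene's probe sets, 2 tissue covariates (the means of the cortex genes and of the thalamus and choroid plexus genes), and arrays left out.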

Additional observations from a re-analysis of the deposited data

How the results depend on the processing

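No alternative gave a proteasome gene an adjusted p under 0.05. The number with an unadjusted p under 0.05 moved more. With the replicate number as a block (the pairing read from the values) it was 11 for chronic MPTP against control, 2 for acute MPTP against control and 13 for chronic against acute MPTP. The shares of all probe sets with such a p, in either direction, were 13%, 4.21% and 13.9%. For chronic MPTP against control the number was 1 with the tissue covariates (1.27% of all probe sets) and 3 to 9 with 1 array left out (2.85% to 7.87%). For chronic against acute MPTP it was 3 with an intensity trend or with the 2 groups alone, 1 with the covariates, 0 without the 3 arrays high in cortex genes, 2 without the 2 high in choroid plexus genes, and 2 to 8 with 1 array left out. The matching shares of all probe sets were 5.07% with the trend, 4.65% with the 2 groups alone and 2.11% with the covariates. They were 5.61% without the choroid-high arrays and 2.38% to 8.45% with 1 array left out. The median difference over the 48 genes stayed negative for chronic MPTP against control and against acute MPTP. With 1 array left out it ran from -0.14 to -0.07 and from -0.13 to -0.06, in that order. For acute MPTP against control it then ran from -0.01 to 0.05. By role, the median for chronic MPTP against control ran, with 1 array left out, from -0.23 to 0.03 in the alpha ring and from -0.12 to 0.11 in the chaperones. Against acute MPTP it ran from -0.23 to 0.01 in the alpha ring, from -0.09 to 0.06 in the chaperones and from -0.07 to 0.05 in the activators. Leaving out the 3 arrays high in cortex genes left 1 acute array. For chronic against acute MPTP the median was then 0.14 in the immunoproteasome subunits (main fit -0.14) and -0.16 in the chaperones (-0.02). For acute MPTP against control it was -0.21 in the immunoproteasome subunits (-0.01) and 0.06 in the 19S non-ATPase subunits (-0.02). The cause was not tested for these or for the following genes, which turned in sign. For chronic MPTP against control Psmb5 was 0.047 after quantile normalization, 0.057 with the covariates and 0.0053 without the cortex-high arrays, and Psmb8 was -0.0031 with the covariates. With 1 array left out, Psmg2 ran from -0.037 to 0.29, Psma1 from -0.016 to 0.17, Psmb5 from -0.13 to 0.058 and Psmb8 from -0.018 to 0.045. For acute MPTP against control Psmb8 was -0.00055 after quantile normalization. Without the cortex-high arrays, which left 1 acute array, Psmd5 was 0.0089, Psme3 0.032, Psmb5 -0.047, Psmb6 -0.079 and Psmb8 -0.12. Without the choroid-high arrays Psmd6 was -0.0096 and Psmb9 0.096. With 1 array left out Psmd6 ran from -0.056 to 0.31, Psmb5 from -0.026 to 0.080, Psmb8 from -0.037 to 0.087 and Psmb9 from -0.097 to 0.14. For chronic against acute MPTP the covariates gave Psmb5 0.052, Psmb8 -0.010, Psmb9 0.011 and Psmb10 0.028. Without the cortex-high arrays, again with 1 acute array, Psme3 was -0.074, Psmd14 -0.12, Psmb5 0.052 and Psmb9 0.15. Without the choroid-high arrays Psmb7 was -0.0075 and Psmb8 -0.069. With 1 array left out Psmd14 ran from -0.088 to 0.37, Psmb5 from -0.16 to 0.032, Psmb7 from -0.032 to 0.080 and Psmb8 from -0.069 to 0.055.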
